A study of Gallus gallus with 6 samples.

Results

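Cholesterol is built from acetyl-CoA by a long chain of enzymes. The first part, shared with all isoprenoids, makes mevalonate and then farnesyl diphosphate, and the second part commits farnesyl units to squalene, closes the sterol ring and trims it to cholesterol. Side branches use the same prenyl units for dolichol, for the tail of ubiquinone and for lipid anchors on proteins. In the intestine the absorptive cells both make cholesterol and take it up from the lumen, and most genes of the chain are known targets of the transcription factor SREBF2, which is released when sterols in the endoplasmic reticulum run low.

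The members are the genes that the deposited table annotates to steroid biosynthesis or to terpenoid backbone biosynthesis and that had at least 10 counts in at least 3 of the 6 libraries. This rule gave 34 of the 17623 rows of the table, 15 for steroid biosynthesis, 19 for terpenoid backbone biosynthesis and 0 for both. Of the 35 annotated rows 1 was left out, the bile salt-activated lipase gene CEL, with 0 counts in every library, which allows at most 0.16 to 0.209 CPM (3 counts; counting error only). Close to the count minimum on the inside stood LIPML5, with 14, 15 and 58 counts in FOS 1 to 3 and 9, 43 and 21 counts in control 1 to 3. All 34 members passed the filter on low counts of the test. To the route to cholesterol 22 members were counted by step, LSS, MSMO1 and SC5D among them. These 22 include genes of the same steps that do not feed sterols directly, such as ACAT1, a mitochondrial thiolase, and GGPS1, which leads away from sterols. The other 12 were counted as branches, with LIPML5 among them although it was placed at no step.

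RNA was sequenced from the ileum, the final segment of the small bowel, of Taiping chickens aged 2 months. The FOS group has 3 libraries, from birds whose basal diet was supplemented with fructooligosaccharide (FOS), a fermentable fibre made of linked fructose, at 1 mL for each litre of water. The control group has 3 libraries, from birds fed only the basal diet of corn and soybean. Nothing in the labels says that libraries of a group came from different birds, so each p-value below reflects the variation among these libraries, of which an unknown part may be technical.

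Total deposited counts ran from 14668289 to 18106651 per library, and CPM below is the count relative to the library size after TMM scaling. All birds are labelled male, and male chickens carry no W chromosome. The W-linked gene HINTW (Wpkci-7 in the table) had 158, 0.0697 and 111 CPM in FOS 1 to 3, against 147, 0.173 and 149 CPM in control 1 to 3. The low values, in FOS 2 and control 2, came from 1 and 3 counts, so 4 libraries go against the label, and the libraries of a group were not all from the same bird. Results below are therefore also given for the 4 libraries with W-linked transcripts, and for FOS 2 against control 2 as a difference with no test.

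The comparison of birds given FOS with control birds asks which ileal transcripts differ with the supplement. Along the route to cholesterol the mean was higher in FOS for 21 of 22 members (median log2 fold change 0.69), and in the 12 members of the branches for 9 (median 0.09). Without FOS 1 these counts were 20 of 22 (median 0.52) and 4 of 12 (median -0.06), and in FOS 2 minus control 2 they were 22 of 22 (median 0.95) and 4 of 12 (median -0.06). In the 4 libraries with W-linked transcripts they were 20 of 22 (median 0.59) and 10 of 12 (median 0.21). A positive log2 fold change was found in 51.1% of all 13807 genes tested, whose median was 0.01. In the fit across all genes, the quasi-likelihood test of edgeR called 0 of the 34 members at an adjusted p under 0.05, where 0.0217% of all genes were called higher. At an unadjusted p under 0.05, 16 members were higher in FOS and 0 lower, where 5.14% of all genes were higher and 4.27% lower. This count was 9 without control 2, where 4.86% of all genes were higher, and 12 without FOS 1, where 5.52% were. In the 4 libraries with W-linked transcripts it was 6, with 4.22% of all genes higher and 3.92% lower. DESeq2 called 4 members higher, LSS, EBP, MSMO1 and SC5D, where it called 0.76% of all genes higher. It called 0 members lower, where 0.319% of all genes were lower. With the replicate number as a block it called 3 of them, all but SC5D, where 0.63% of all genes were called higher and 0.203% lower. By limma-voom 0 members were called, where 0.00724% of all genes were called higher. Every FOS library lay above every control library in 16 members, against 8.58% of all genes, and the reverse was seen in 0 members, against 7.84%.

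Levels per transcript length (FPKM, as the authors deposited them) differed widely within the route. In FOS libraries the highest member was MSMO1, at 93.1 ± 33.5 FPKM, followed by EBP at 77.4 ± 25.7 FPKM (SD, n = 3), which did not differ from it beyond the spread. In control libraries PCYOX1 stood highest, at 55.1 ± 3.27 FPKM, followed by LIPA at 51.9 ± 3.05 FPKM (SD, n = 3), again within the spread. MSMO1 stood at 46.7 ± 9.82 FPKM and EBP at 38.3 ± 4.09 FPKM in control (SD, n = 3). The lowest enzyme of the sterol steps was DHCR7, at 7.55 ± 1.67 FPKM in FOS and 4.92 ± 0.294 FPKM in control (SD, n = 3). Below all of these were LIPML5, with a mean of 1.35 FPKM in FOS and 1.09 FPKM in control, and CYP2R1, with 0.537 FPKM in FOS and 0.78 FPKM in control.

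**Figure D1:**
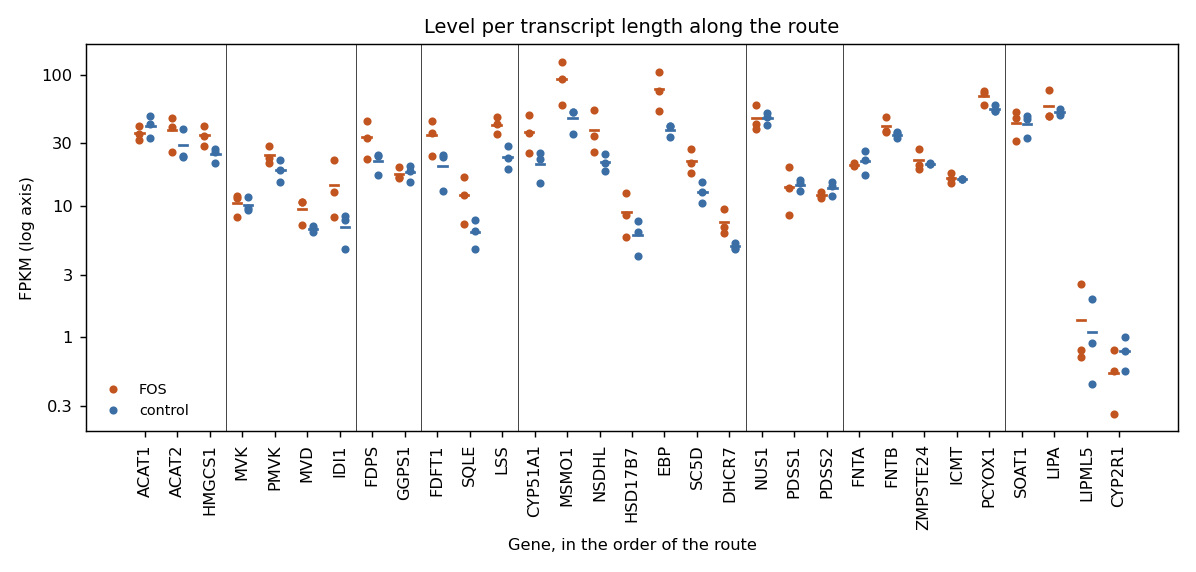
FPKM on a log axis for 31 of the 34 members in the order of the route, acetyl-CoA enzymes at left and branches at right, with 1 point per library and a bar at the mean of each group of 3. MSMO1 and EBP stand highest among the sterol steps in both groups, and LIPML5 and CYP2R1 stand near or below 1 FPKM.

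The first reactions join acetyl-CoA units and reduce the product to mevalonate. ACAT2, the cytosolic thiolase, stood at 78.2, 41.7 and 63.3 CPM in FOS 1 to 3 and at 59.2, 37.5 and 36.8 CPM in control 1 to 3, so the groups overlapped. It was higher in FOS in 3 of 3 comparisons of same-numbered libraries, as were 2289 of all 13807 genes. Its log2 fold change was 0.46 (SE 0.27; 0.25 without FOS 1 and 0.72 without control 1). Its unadjusted p by edgeR was 0.134, and 0.0251 with the block (adjusted p = 0.514). ACAT1, the mitochondrial thiolase of ketone and amino acid breakdown, stood at 46.9, 52.6 and 40.3 CPM in FOS and at 51.4, 41.4 and 59.1 CPM in control. It had the only negative log2 fold change of the members counted to the route (-0.12, 95% interval -0.51 to 0.26). HMGCS1, the cytosolic synthase that feeds the sterol route, stood at 82.1, 67 and 55 CPM in FOS and at 47.6, 40.8 and 49.9 CPM in control. All FOS libraries lay above all control libraries, and the log2 fold change was 0.56 (SE 0.17, edgeR adjusted p = 0.474; 0.41 without FOS 1).

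Mevalonate is then phosphorylated and decarboxylated to isoprenoid units. MVK, the mevalonate kinase, stood at 27.1, 25.7 and 17.9 CPM in FOS and at 19.4, 25.3 and 20 CPM in control, with overlap (log2 fold change 0.13, SE 0.2; 0.02 without FOS 1). The next enzymes, PMVK and MVD, did not overlap between the groups. PMVK stood at 19.3, 24.9 and 19.8 CPM in FOS and at 18.3, 13.1 and 15.5 CPM in control, a log2 fold change of 0.45 (SE 0.18; edgeR unadjusted p = 0.0401, and 0.0666 with the block). MVD stood at 24.4, 23.6 and 15.4 CPM in FOS and at 14.6, 13.7 and 14.1 CPM in control, a log2 fold change of 0.58 (SE 0.2). The gap was narrow in both, between FOS 1 and control 1 for PMVK and between FOS 3 and control 1 for MVD.

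The isopentenyl-diphosphate isomerase gene, which balances the isoprenoid units, had the largest fold change of all members. The table describes it as isomerase 1 and gives no symbol, so it is called IDI1 here, while RefSeq names the same gene ID IDI2. It stood at 52.1, 28.8 and 18.2 CPM in FOS 1 to 3 and at 17.7, 10.3 and 16.7 CPM in control 1 to 3. FOS 3 exceeded control 1 by little, and FOS 1 was far above all other libraries. The log2 fold change was 1.15 (SE 0.39, edgeR adjusted p = 0.483) and 0.66 without FOS 1.

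At the branch point, FDPS makes farnesyl diphosphate and GGPS1 lengthens it to geranylgeranyl diphosphate. FDPS stood at 62.5, 44.7 and 30.2 CPM in FOS and at 30.8, 22.7 and 31.4 CPM in control, so FOS 3 lay within the control range. Its log2 fold change was 0.69 (SE 0.27, edgeR adjusted p = 0.508; 0.41 without FOS 1). GGPS1, which leads away from sterols, stood at 33.9, 27.5 and 26.7 CPM in FOS and at 31.9, 24.9 and 29 CPM in control. Its log2 fold change was 0.04 (95% interval -0.32 to 0.39).

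The 11 members from squalene to cholesterol formed the most even block of the route. Their log2 fold changes ran from 0.63 to 1.1 with a median of 0.88. For the 8 members from lanosterol to cholesterol the summed FPKM was 395, 289 and 202 in FOS 1 to 3 and 171, 127 and 178 in control 1 to 3. MSMO1 and EBP together made up 55.7 to 58.4% of this sum in FOS and 52.1 to 54.4% in control. Of the 11 members from squalene to cholesterol, 9 were higher at an unadjusted p under 0.05 by edgeR, against 5.14% of all genes. In 9 every FOS library lay above every control library, against 8.58% of all genes. With edgeR the adjusted p of the 11 ran from 0.414 to 0.604, so 0 passed. All 11 had a positive log2 fold change in the 4 libraries with W-linked transcripts (0.13 to 1.05), in FOS 2 minus control 2 (0.59 to 1.62) and without FOS 1 (0.33 to 0.8).

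FDFT1, squalene synthase and the first committed sterol enzyme, stood at 124, 95.6 and 62.9 CPM in FOS and at 59.8, 33.9 and 61.2 CPM in control. The groups were separated by a small gap between FOS 3 and control 3 (log2 fold change 0.86, SE 0.3). SQLE, the squalene epoxidase, a known control point of the pathway, stood at 45, 31.8 and 18.9 CPM in FOS and at 15.9, 12 and 19.5 CPM in control. FOS 3 stood below control 3, so the groups overlapped (log2 fold change 1.01, SE 0.33; 0.69 without FOS 1).

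LSS (ENSGALG00000006198), lanosterol synthase, folds the epoxide into the ring system. It stood at 156, 134 and 110 CPM in FOS 1 to 3 and at 70.3, 59.1 and 85.7 CPM in control 1 to 3, well apart. LSS had the smallest p of the members, 44th of 13807 genes, with a log2 fold change of 0.89 (SE 0.18, 95% interval 0.47 to 1.32). Its adjusted p was 0.414 with edgeR, 0.00405 with DESeq2 and 0.00933 with DESeq2 and the block.

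**Figure D2:**
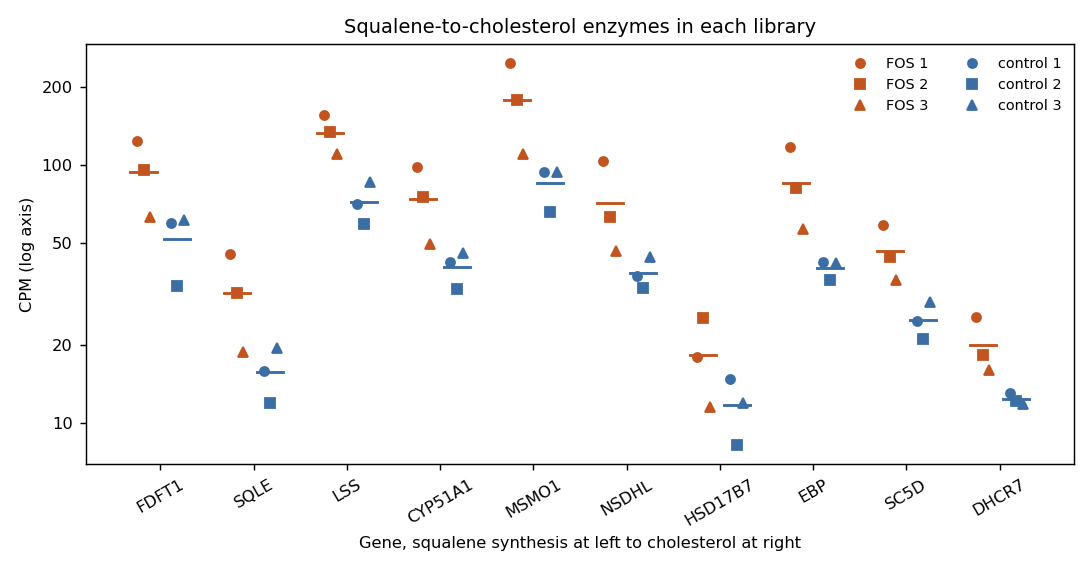
CPM on a log axis for 10 of the 11 members from squalene to cholesterol, with 1 symbol per library (circle, square and triangle for replicates 1, 2 and 3) and a bar at the mean of each group. FOS 1 stands highest and FOS 3 lowest of the FOS libraries in most genes, and only SQLE and HSD17B7 have a FOS library within or below the control range.

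Lanosterol loses its methyl groups in the next reactions. CYP51A1, the cytochrome P450 that starts this, stood at 98.3, 74.8 and 49.2 CPM in FOS and at 41.9, 33.1 and 45.4 CPM in control (log2 fold change 0.88, SE 0.25). MSMO1 (ENSGALG00000009560), the methylsterol monooxygenase, stood at 248, 178 and 110 CPM in FOS and at 94.2, 65.9 and 94.2 CPM in control. Neither gene overlapped between the groups. MSMO1 had a log2 fold change of 1.08 (SE 0.29) with an adjusted p of 0.443 with edgeR, 0.0324 with DESeq2 and 0.0132 with DESeq2 and the block.

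The partners of MSMO1 in this demethylation are NSDHL, a dehydrogenase, and HSD17B7, a ketoreductase. NSDHL stood at 104, 63.1 and 46.6 CPM in FOS and at 37.2, 33.3 and 43.9 CPM in control, without overlap (log2 fold change 0.9, SE 0.28; 0.53 without FOS 1). HSD17B7 stood at 18, 25.5 and 11.5 CPM in FOS and at 14.8, 8.21 and 12 CPM in control, with FOS 3 inside the control range. It was the only one of the 11 with FOS 2 as the highest library, and its log2 fold change of 0.65 (SE 0.33) was 0.34 without FOS 2. In the 4 libraries with W-linked transcripts it was 0.13.

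The last reactions move and remove double bonds. EBP (ENSGALG00000048205), the sterol isomerase, named from its description in the table, stood at 117, 81.3 and 56.5 CPM in FOS and at 41.9, 35.7 and 41.6 CPM in control. The FOS libraries varied widely and the control libraries little, and they did not overlap. Its log2 fold change was 1.1 (SE 0.25, 95% interval 0.51 to 1.68), with an adjusted p of 0.434 with edgeR, 0.01 with DESeq2 and 0.0046 with DESeq2 and the block. SC5D (ENSGALG00000037065), the desaturase after it, stood at 58.5, 44.1 and 35.9 CPM in FOS and at 24.8, 21.2 and 29.4 CPM in control, without overlap. Its log2 fold change was 0.88 (SE 0.21), and its adjusted p was 0.434 with edgeR, 0.0279 with DESeq2 and 0.0599 with DESeq2 and the block.

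DHCR7, a reductase that acts on the ring, stood at 25.7, 18.4 and 16.1 CPM in FOS and at 13.1, 12.2 and 11.9 CPM in control (log2 fold change 0.69, SE 0.2). Its groups did not overlap, with the 3 control libraries close together. TM7SF2, which reduces a ring double bond after CYP51A1, is not annotated to the pathways in the table and so is no member. It stood at 110, 82.1 and 76.6 CPM in FOS and at 107, 93 and 98.7 CPM in control, a log2 fold change of -0.15 (SE 0.15).

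**Figure D3:**
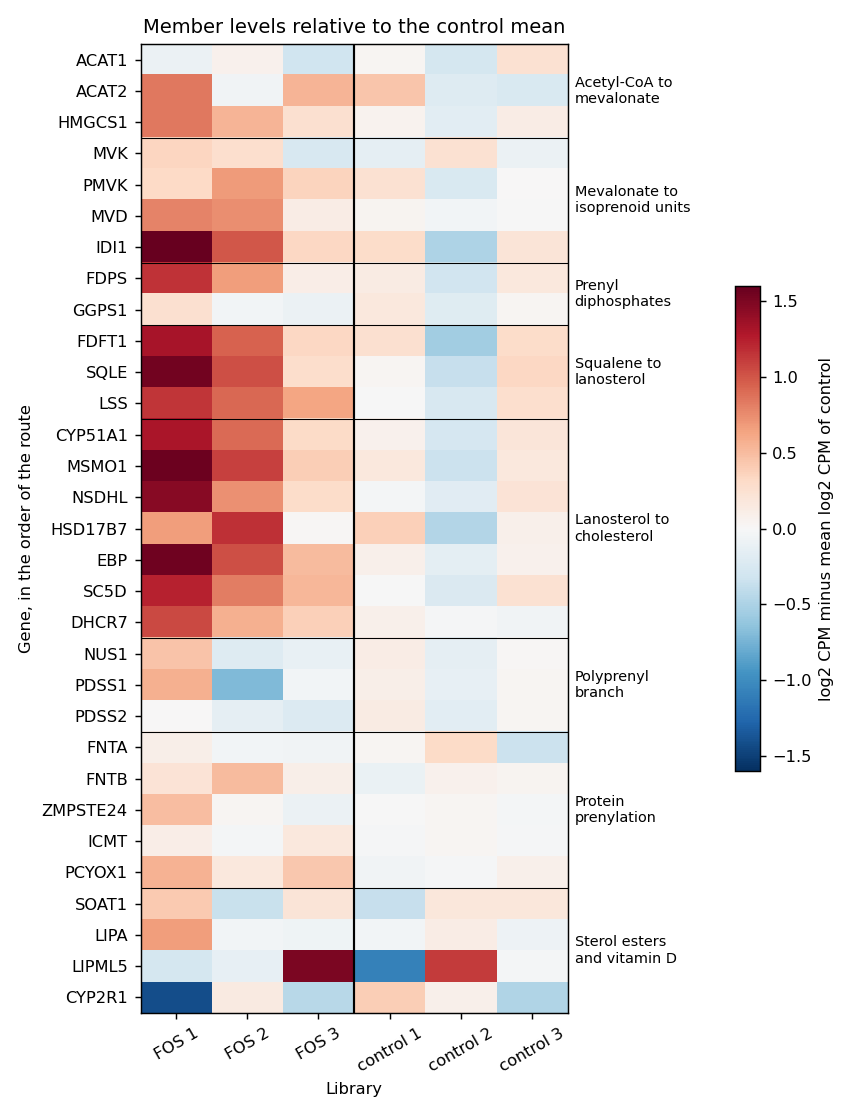
Heat map of log2 CPM minus the mean log2 CPM of the control libraries, for 31 of the 34 members (down) in the 6 libraries (across, FOS at left), with lines between the steps of the route. From FDFT1 to DHCR7, FOS 1 is the darkest red column except for HSD17B7, FOS 3 is the palest FOS column, and the branch genes below show no common colour.

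Libraries of the same group were ordered alike along the sterol steps. FOS 1 was the highest FOS library in 10 and FOS 3 the lowest in 11 of the 11 members, and control 2 was the lowest control library in 10. Over all 34 members FOS 1 was the highest of the 6 libraries in 24, against 27.2% of all genes, and control 2 the lowest in 17, against 12.7%. Relative to the control mean, the median over the 11 members was 1.3, 0.91 and 0.33 log2 units in FOS 1 to 3 and 0.08, -0.27 and 0.21 in control 1 to 3. FOS 3 was thus closer to control 3 than to FOS 2 on this measure. For the 11 members from acetyl-CoA to prenyl diphosphates the same medians were 0.78, 0.54 and 0.13 in FOS and 0.14, -0.21 and 0.03 in control, with overlap between FOS 3 and control 1.

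The branches that use the same building blocks were nearer to 0. For dolichol, NUS1, a subunit of the enzyme that makes its chain, stood at 60.9, 38.6 and 41 CPM in FOS and at 48.3, 40.1 and 45.1 CPM in control (log2 fold change 0.07, SE 0.19). PDSS1 and PDSS2, the subunits that make the ubiquinone tail, had log2 fold changes of 0.03 (SE 0.29) and -0.12 (SE 0.15). PDSS1 was uneven within FOS, at 33.3, 13.8 and 21.8 CPM in FOS 1 to 3 and at 24, 20.5 and 22.9 CPM in control 1 to 3. Without FOS 1 its log2 fold change was -0.33, and without FOS 2 it was 0.3.

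Protein prenylation attaches farnesyl or geranylgeranyl groups to cysteines and then processes the end of the protein. FNTA and FNTB, the subunits of farnesyltransferase, had log2 fold changes of -0.02 (SE 0.17) and 0.28 (SE 0.13). FNTB stood at 71.7, 87.5 and 66.2 CPM in FOS and at 57.2, 64.6 and 63.8 CPM in control, without overlap, and without FOS 2 its log2 fold change was 0.16. The processing protease ZMPSTE24 and the methyltransferase ICMT had log2 fold changes of 0.16 (SE 0.16; -0.03 without FOS 1) and 0.08 (SE 0.11), and both overlapped.

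PCYOX1, the lysosomal oxidase that breaks down prenylated cysteine, was the only branch member with an unadjusted p under 0.05. It stood at 194, 148 and 177 CPM in FOS and at 126, 130 and 139 CPM in control, without overlap (log2 fold change 0.39, SE 0.13, edgeR adjusted p = 0.479).

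Sterol esters are made by SOAT1 and cut in the lysosome by LIPA. SOAT1 stood at 103, 60.3 and 89.1 CPM in FOS and at 59.8, 87.3 and 87.7 CPM in control (log2 fold change 0.1, SE 0.23). LIPA stood at 249, 152 and 149 CPM in FOS and at 152, 170 and 147 CPM in control (log2 fold change 0.23, SE 0.21). Both overlapped, and without FOS 1 their log2 fold changes were -0.06 and -0.05. LIPML5, which the table annotates with the same enzyme class as LIPA, and CYP2R1, a vitamin D hydroxylase, had means from 1.38 to 2.59 CPM and wide intervals (-1.26 to 1.96 and -1.53 to 0.58).

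**Figure D4:**
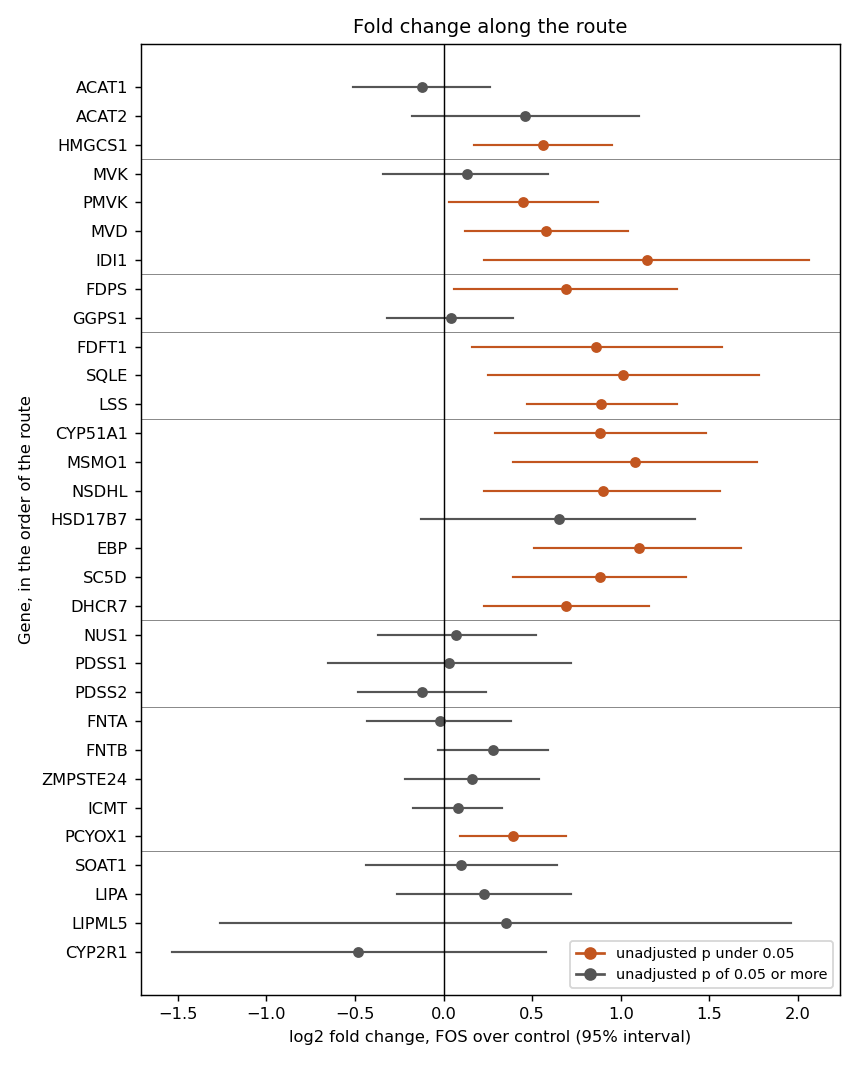
Log2 fold change of FOS over control with its 95% interval (edgeR) for 31 of the 34 members in the order of the route, orange where the unadjusted p was under 0.05 and grey elsewhere. The intervals from FDFT1 to DHCR7 lie above 0 except that of HSD17B7, and those of the branches include 0 except that of PCYOX1.

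The table's own annotation gives terms for cell part and activity for some members. Of the 34 members 13 (38.2%) carried a term for the endoplasmic reticulum, against 5.76% of rows that passed the count rule, and 9 (26.5%) a term for oxidoreductase activity, against 2.84%. The endoplasmic reticulum term was absent for LSS, EBP and MSMO1, so a split by it follows the annotation and need not follow location. Most of the 13 are also members from squalene to cholesterol, so the split overlaps with that block and is no separate trait. All 13 members with the term had a positive log2 fold change (median 0.65), against 17 of the other 21 (median 0.39) and 51.1% of all genes. Without FOS 1 these counts were 10 of 13 and 14 of 21, and in FOS 2 minus control 2 they were 9 of 13 and 17 of 21. In the 4 libraries with W-linked transcripts they were 13 of 13 (median 0.53) and 17 of 21 (median 0.47). Iron or heme binding was annotated for 4 members (11.8%), against 0.998% of rows that passed the count rule. Of these, 3 are sterol enzymes, CYP51A1, MSMO1 and SC5D, with every FOS library above every control library, as in 8.58% of all genes. The other, CYP2R1, overlapped between the groups (log2 fold change -0.48).

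Genes next to the route were taken from lists written for this purpose, with edgeR calling 0 members over all genes in each. By edgeR 5.14% of all genes were higher and 4.27% lower at an unadjusted p under 0.05. Among 9 genes of acetyl-CoA supply and use, 1 was higher and 1 lower at an unadjusted p under 0.05. The higher was SLC25A1, the citrate carrier, at 146 ± 7.82 CPM in FOS and 119 ± 16.9 CPM in control (SD, n = 3). The lower was FASN, the fatty acid synthase, which uses acetyl-CoA and does not supply it. It stood at 96.2 ± 8.18 CPM in FOS and 114 ± 4.09 CPM in control (SD, n = 3). ACLY, which makes cytosolic acetyl-CoA from citrate, stood at 106 ± 8.84 CPM in FOS and 96.3 ± 5.94 CPM in control (SD, n = 3), and DESeq2 called 0 of the 9. Among 13 genes of sterol sensing, 2 were higher and 0 lower at this level, SREBF2 (log2 fold change 0.59, SE 0.15) and INSIG1, which retains the SREBF2 precursor when sterols are plentiful (0.95, SE 0.29; 0.51 without FOS 1). DESeq2 called SREBF2 (adjusted p = 0.0486) and lost it with the block, where it called 0.76% of all genes higher, and 0.63% with the block. INSIG1 stood at 153, 77.3 and 70 CPM in FOS 1 to 3 and at 47.6, 53.4 and 54.3 CPM in control 1 to 3, again with FOS 1 highest.

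Sterol transport genes did not share one direction. Of 11 measured, 1 was higher and 2 lower at an unadjusted p under 0.05 by edgeR, where 5.14% of all genes were higher and 4.27% lower. SCARB1, a lipoprotein receptor, stood at 26.1, 27.5 and 35.9 CPM in FOS and at 16.2, 13.9 and 17.9 CPM in control, with FOS 3 highest (DESeq2 adjusted p = 0.00405, edgeR adjusted p = 0.408). The exporter ABCG1 stood at 6.32 ± 0.346 CPM in FOS and 10.3 ± 1.22 CPM in control, and ABCA1 at 66.3 ± 18.3 CPM in FOS and 95.3 ± 12.5 CPM in control (SD, n = 3), both without overlap. The log2 fold change of ABCA1 was -0.52, and -0.31 without FOS 1. Of the 11, DESeq2 called SCARB1, with and without the block, where it called 0.63% and 0.76% of all genes higher.

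In bulk tissue, fewer cells of a type and less RNA per cell cannot be told apart, and levels of cell type markers differed beside the sterol genes. Of all genes 51.1% had a positive log2 fold change, and 5.14% were higher and 4.27% lower at an unadjusted p under 0.05 by edgeR. DESeq2 called 0.76% of all genes higher, and 0.63% with the block. Of 23 rows for enterocyte markers, the absorptive cells, 21 had a positive log2 fold change (median 0.44). At an unadjusted p under 0.05, 9 of the 23 were higher and 0 lower, and DESeq2 called 1, APOA1 (3 with the block, not APOA1). Without FOS 1, 19 of the 23 were positive (median 0.36), and in FOS 2 minus control 2 15 were (median 0.29). In the 4 libraries with W-linked transcripts 22 of the 23 were positive (median 0.5). The mean log2 CPM of the 23 rows was 9.1, 8.71 and 8.75 in FOS 1 to 3 and 8.24, 8.52 and 8.09 in control 1 to 3. All 17 smooth muscle markers had a negative log2 fold change (median -0.29), 1 with an unadjusted p under 0.05, with a mean log2 CPM of 7.76, 8.27 and 8.4 in FOS and 8.59, 8.2 and 8.68 in control. Without FOS 1, 2 of the 17 were positive (median -0.18), and in FOS 2 minus control 2 11 were (median 0.03). In the 4 libraries with W-linked transcripts 0 of the 17 were positive (median -0.53). By mean log2 CPM, FOS 1 was the highest library in enterocyte markers, as in most sterol genes, and the lowest in smooth muscle markers. It was also the highest in 9 of the 10 proliferation markers, against 27.2% of all genes. The mean log2 CPM of the 10 proliferation markers was 6.27, 5.35 and 5 in FOS 1 to 3 and 5.96, 5.57 and 5.63 in control 1 to 3. FOS 3 was thus the lowest FOS library in proliferation markers, as in the sterol steps. In enterocyte markers FOS 2 and FOS 3 were close, at 8.71 and 8.75. Control 2, the lowest control library in 10 of the 11 sterol members, was the highest control library in the mean of enterocyte markers and the lowest in that of proliferation markers.

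With the smooth muscle level as a covariate, 5 members were higher and 0 lower at an unadjusted p under 0.05 (3.32% and 2.07% of all genes), and the 11 sterol members had log2 fold changes from 0.44 to 0.85. In the edgeR fit with no covariate, 14 of 15 fibroblast and matrix markers had a negative log2 fold change. At an unadjusted p under 0.05 in that fit 5 were lower and 0 higher, where 4.27% of all genes were lower and 5.14% higher. The mean log2 CPM of the 15 was 7.66 to 8.31 in FOS and 8.25 to 8.35 in control. Their median log2 fold change was -0.34, and -0.15 without FOS 1, where 5 of the 15 were positive. In the 4 libraries with W-linked transcripts the median was -0.26. Of 11 T cell markers 2 were lower and 0 higher at this level in the same fit. DESeq2 called 1, CD3D, but not with the block, where it called 0.319% of all genes lower, and 0.203% with the block. Among 9 B and plasma cell, 9 macrophage and 10 proliferation markers neither DESeq2's adjusted p nor the unadjusted p of edgeR was under 0.05 for any gene (0 of each list). The median log2 fold changes of T cell, B and plasma cell, and macrophage markers were -0.25, -0.22 and -0.27, and in FOS 2 minus control 2 they were 0, 0.37 and 0.37. In the 4 libraries with W-linked transcripts they were -0.36, -0.35 and -0.61. The median log2 fold change of proliferation markers was -0.13, and -0.53 without FOS 1. Of 6 goblet cell markers 1 was higher and 1 lower at this level by edgeR with no covariate, CLCA1 and TFF2. CLCA1 stood at 4110 ± 643 CPM in FOS and 2440 ± 876 CPM in control (SD, n = 3). TFF2 had very low values, at 0.457 ± 0.142 CPM in FOS and 1.37 ± 0.647 CPM in control (SD, n = 3). DESeq2 called CLCA1 only with the block, where it called 0.63% of all genes higher. Markers of hepatocytes and of adrenal steroid cells, other sites of sterol use, were low, and the 8 together summed to 4.81 to 5.55 CPM in FOS and 4.44 to 5.08 CPM in control. The highest was CYP11A1, at 1.35 to 1.82 CPM in FOS and 1.44 to 1.62 CPM in control, and the lowest HSD3B1, at 0 to 0.0561 CPM in FOS and 0 to 0.0601 CPM in control. The covariate fit used the smooth muscle level alone, taken from the same libraries, and no fit used the enterocyte level. The part of tissue makeup in the sterol values was not tested.

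**Figure D5:**
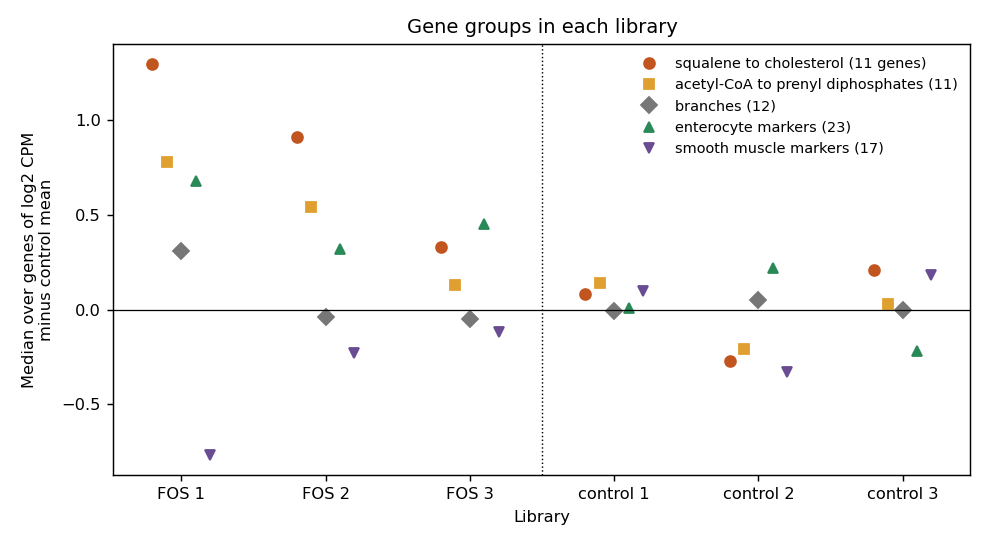
Median over genes of log2 CPM minus the control mean, for each library, in 5 gene groups (squalene to cholesterol, acetyl-CoA to prenyl diphosphates, branches, enterocyte markers and smooth muscle markers). The sterol group stands at 1.3, 0.91 and 0.33 in FOS 1 to 3 and the enterocyte markers at 0.68, 0.32 and 0.45, while the smooth muscle markers are lowest in FOS 1.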

How the data were processed

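The authors deposited expected counts (estimated counts, 8.06% of them fractional, beyond a tolerance of 1e-09) and FPKM for each gene and library. Tools listed in the submitters' processing notes, without their roles, are HISAT2, Bowtie2, StringTie 1.3.1, fastp 0.18.0 and DESeq2. The labels' protocols name TRIzol for extraction and, for the libraries, a kit made for small RNA. For the counting step and the genome build, each is not given in the sources used here, and coordinates are left out. The 12 value columns of 6 other libraries were not used. The table's symbols name 30 of the 34 members, its descriptions 2 (IDI1 and EBP), and RefSeq's GRCg7b gene table, joined on NCBI gene ID, the other 2. ACAT1 and ACAT2, and LIPA and LIPML5, are related genes, whose shared reads the counting may have split.

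Counts were rounded and filtered with filterByExpr, which kept 13807 genes, and scaled by TMM. The quasi-likelihood F test (edgeR 4.0.16, R 4.3.3) compared the groups with no covariates, and p-values were adjusted over all genes by Benjamini-Hochberg (threshold 0.05). Standard errors were derived from the fold change and F, and log2 CPM has a prior count of 2. The fits were tested on simulated data. Alternatives were RLE factors, no filter or 1 CPM in 3 libraries, DESeq2 1.42.0, limma-voom, limma 3.58.1 on log2(FPKM + 1) or log2(FPKM + 0.1), each library left out, the replicate number as a block (edgeR and DESeq2), W-linked transcripts as a covariate or as a choice of libraries (HINTW above 10 CPM), and the smooth muscle level as a covariate. FOS 2 against control 2 was added after seeing the data. Replicate numbers come from the sample titles. Libraries with the same number deviated together from their group means, with correlations of 0.24, 0.388 and 0.198, each over 0.1. The main fit stayed unpaired, and values with the replicate number as a block are printed where a call changed. The highest correlation, 0.388, was between FOS 2 and control 2, the libraries without W-linked transcripts. Whether the numbers mark pairs of birds was not tested.

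Of the 34 members 31 are named. The values of the other 3, and of a gene on another list, are not reported here, but counts, medians and ranges cover all members. In other lists, genes with an unadjusted p under 0.05 could be named, up to 4 per list by smallest p, with SREBF2, INSIG1 and ACLY in any case. TM7SF2, DHDDS, CYP11A1 and HSD3B1 were named after their values were seen. The members and lists were chosen with earlier results of these data known, and 6 genes stand on more than 1 list. Limits from 0 counts cover counting error only. Intervals of fold changes come from the quasi-likelihood fit of edgeR, and like its p-values they reflect the variation among these libraries.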

Additional observations from a re-analysis of the deposited data

How the results depend on the processing

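Precision is limited by 3 libraries per group and, for LIPML5 and CYP2R1, by low counts. The count of all genes called was 3, and 149 with DESeq2, 115 with DESeq2 and the replicate block, 1 with limma-voom and 0 to 4 with 1 library left out. Members called were 0, but 4 with DESeq2 and 3 with DESeq2 and the block. Members higher at an unadjusted p under 0.05 by edgeR were 16, where 5.14% of all genes were higher. They were 6 in the 4 libraries with W-linked transcripts (4.22% of all genes) and 5 with the smooth muscle covariate (3.32%). With 1 library left out they were 9 to 20, with 9 without control 2 (4.86% of all genes) and 12 without FOS 1 (5.52%). The median log2 fold change of the members, 0.45, stayed within the spread of 0.18 between libraries of a group, from 0.37 to 0.58 with 1 library left out. Of the 34 members 23 kept their sign in all 18 alternatives other than FOS 2 minus control 2, and 11 did not. With 1 library left out, the log2 fold change ran from -0.03 to 0.28 for ZMPSTE24, -0.06 to 0.3 for SOAT1, -0.05 to 0.37 for LIPA, -0.33 to 0.3 for PDSS1, -0.15 to 0.2 for NUS1, -0.18 to 0.14 for FNTA, -0.25 to 0 for ACAT1, -0.46 to 1.07 for LIPML5 and -0.07 to 0.12 for GGPS1. With the smooth muscle covariate it was -0.08 for ZMPSTE24 and SOAT1, -0.14 for LIPA, -0.28 for PDSS1, -0.13 for MVK and NUS1, and -0.02 for GGPS1. PDSS1 gave -0.05 with limma-voom and with the replicate block in edgeR or DESeq2, and -0.03 with the W covariate. With FPKM and a pseudocount of 1 or 0.1 it gave -0.11 or -0.12, NUS1 -0.02 and GGPS1 -0.03. FNTA gave 0 with limma-voom, and in the 4 libraries with W-linked transcripts 0.16, where GGPS1 gave -0.01. In FOS 2 minus control 2, added after seeing the data, the median was 0.51. The cause of these changes was not tested.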

Other observations

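Beside the branches, the pathways that use their products were measured. Of all genes 5.14% were higher and 4.27% lower in FOS at an unadjusted p under 0.05 by edgeR, and DESeq2 called 0.76% higher and 0.319% lower. Of 18 rows for the assembly of glycans on dolichol 3 were higher and 0 lower at this level, with 0 called by edgeR and 0 by DESeq2. ALG2, a mannosyltransferase of that assembly, stood at 47, 39.9 and 33 CPM in FOS 1 to 3 and at 22.9, 27.3 and 25.5 CPM in control 1 to 3 (log2 fold change 0.66, SE 0.16). DPAGT1, which starts the glycan, stood at 99.8 ± 2.08 CPM in FOS and 81.8 ± 3.46 CPM in control (SD, n = 3), and ALG3, another mannosyltransferase, at 15.7 ± 2.06 CPM in FOS and 11.4 ± 1.77 CPM in control (SD, n = 3). In 7 of the 18 rows, these 3 among them, every FOS library lay above every control library, against 8.58% of all genes. The reverse was seen in 0 rows, against 7.84%. DHDDS, the partner of NUS1, stood at 76.2 ± 16.7 CPM in FOS and 69.2 ± 5.51 CPM in control (SD, n = 3), with overlap. Of 11 genes for the head and assembly of ubiquinone 1 was higher and 0 lower at this level, COQ4, at 64.4 ± 6.54 CPM in FOS and 53.5 ± 1.85 CPM in control (SD, n = 3), with 0 called by edgeR and 0 by DESeq2. Of 5 genes for the loading of lipid into lipoproteins, 4 of them also among the enterocyte markers, 2 were higher at this level, APOA1 and APOA4, and DESeq2 called APOA1 but not with the block. APOA4 stood at 494, 57.6 and 114 CPM in FOS 1 to 3 and at 48, 48.5 and 47.7 CPM in control 1 to 3, with FOS 1 far above the rest, and its log2 fold change was 2.21, and 0.84 without FOS 1.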
